A study of Mus musculus with 3 samples.

Results

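Homologous recombination repairs broken DNA by copying an intact sister strand, and the ATR checkpoint slows the cell cycle while replication forks are damaged. Both act mainly in cells that copy their DNA. The 9 genes described here were taken by name from a deposited table of 25638 genes, and each of the 9 names has a row. They and the lists set beside them were chosen with earlier results of these data known. Their contrast with all genes therefore only describes a chosen set. Brca1 and Brca2 encode tumour suppressors that act on resected DNA ends. Rad54l encodes the motor protein RAD54, Exo1 an end-resecting nuclease and Blm the helicase mutated in human Bloom syndrome. Fanci and Fancd2 encode the paired proteins at the centre of the Fanconi anaemia pathway for DNA crosslinks. Chek1 and Atr encode the checkpoint kinase CHK1 and the kinase ATR that activates it.

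The table holds RNA-seq read counts for effector memory, central memory and naive CD8+ T cells of the mouse spleen; all animals were wild type and untreated. Each group is 1 library, so no difference has a replicate check, no test between groups was possible, and intervals and floors cover counting error only. How many animals each library came from, and which sorting markers were used, is not given here. In bulk RNA, fewer cells with a transcript and less of it per cell cannot be told apart.

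Levels are given as CPM, the count scaled to a library of 1e6 reads. Library totals were 33087462 counts in effector memory, 35846315 in central memory and 26876909 in naive, and a count of 0 allowed up to 0.0938, 0.0837 and 0.108 CPM in that order. T cell genes were present in each library: Cd3e, a chain of the T cell receptor complex, stood at 335 CPM in effector memory, 418 in central memory and 395 in naive, and Cd8a at 408, 1063 and 1868 CPM. Proliferation genes differed between the libraries alongside the 9 genes. Mki67, a marker of cycling cells, stood at 1819, 301 and 2.62 CPM, and the summed level of 20 mitosis genes was 7066, 1119 and 34.5 CPM. Markers of other spleen cells were mostly low. The 8 B cell markers summed to 2.81, 6.50 and 36.5 CPM, with Ms4a1 and Ebf1 at 0 in both memory libraries. Cd79b had 2.19, 2.76 and 14.6 CPM and Cd79a 0.625, 3.29 and 5.32 CPM, most of the sums in the memory libraries. The 7 natural killer cell markers summed to 93.1, 139 and 39.0 CPM. Eomes, which memory CD8+ T cells also express, made up 79.9, 74.4 and 38.1 CPM of these sums. Receptor genes of natural killer cells stood apart in central memory: Klrb1c had 1.91, 33.0 and 0.216 CPM in effector memory, central memory and naive, while Ncr1, Klra8 and Klra4 had 12.2, 3.68 and 2.71 CPM in central memory and 0 counts in the other libraries. By the calling rule given further on, 4 of the 7 markers were higher in central memory than in naive (Klrb1c, Ncr1, Fcer1g and Tyrobp), beside 11.2% of all measured genes. Of the 7, 3 were lower in effector memory than in central memory (Klrb1c, Ncr1 and Tyrobp), beside 12.8% of all measured genes. Klra8 and Klra4 stayed below 5 CPM and could not be called. Fcer1g had 10.4, 7.96 and 0.288 CPM in effector memory, central memory and naive. The 8 myeloid markers summed to 22.4, 7.93 and 7.65 CPM and the 8 erythroid markers to 2.28, 1.12 and 1.65 CPM. Cd68 alone gave 21.1 CPM of the myeloid sum in effector memory, where Lyz2, Csf1r, Adgre1, S100a9 and Mpo were at 0. The 5 dendritic cell markers summed to 12.5, 2.23 and 3.02 CPM, and the 5 plasma cell markers to 131, 40.2 and 32.1 CPM, nearly all from Xbp1. Xcr1 gave 12.3 CPM of the dendritic cell sum in effector memory, where Flt3, Siglech and Clec9a were at 0. The 10 genes of CD8 T cell identity summed to 3371, 5011 and 6204 CPM, with medians of 293, 420 and 359 CPM. By the calling rule 3 of the 10 were lower in effector memory than in naive and 2 lower than in central memory. These counts stand beside 15.6% and 12.8% of all measured genes. None of the 10 was called in central memory against naive. Of the 4 markers of CD4 and regulatory T cells, Zbtb7b reached 93.6, 37.4 and 1.33 CPM, while Cd4 itself was at 0.281, 0.251 and 2.12 CPM. Foxp3 was at 0.156, 1.70 and 3.95 CPM and Cd40lg at 0.281, 0.363 and 0.323 CPM. The part of cell cycle activity or of other cell types in the results below was not tested.

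Promoter windows, 250 bases before to 50 after the annotated start, were found for 7 of the 9 genes in RefSeq on GRCm38.p6. Exo1 and Fancd2 had no entry, and of the 2 windows listed for Rad54l 1 was used. The sequences printed here belong to Brca2, the only gene of the 7 with an exact match to the E2F words searched, to Rad54l, the gene with the largest difference between effector memory and naive, and to Atr, the gene with the smallest. Capitals mark the matches found, and each sequence runs 5′ to 3′ along the strand of its gene.
Brca2, plus strand, chr5:150522371-150522670
Brca2 promoter: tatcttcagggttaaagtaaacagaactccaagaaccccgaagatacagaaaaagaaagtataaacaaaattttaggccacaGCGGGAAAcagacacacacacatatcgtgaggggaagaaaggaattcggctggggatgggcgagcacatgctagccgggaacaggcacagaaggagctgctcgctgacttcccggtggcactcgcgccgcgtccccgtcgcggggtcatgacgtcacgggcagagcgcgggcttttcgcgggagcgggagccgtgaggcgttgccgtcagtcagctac
Rad54l, minus strand, chr4:116123641-116123940
Rad54l promoter: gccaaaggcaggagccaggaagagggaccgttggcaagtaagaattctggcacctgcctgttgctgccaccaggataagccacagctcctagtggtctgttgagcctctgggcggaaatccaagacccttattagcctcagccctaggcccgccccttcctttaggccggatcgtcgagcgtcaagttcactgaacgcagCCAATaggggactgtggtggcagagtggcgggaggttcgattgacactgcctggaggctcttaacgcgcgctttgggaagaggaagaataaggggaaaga
Atr, plus strand, chr9:95857347-95857646
Atr promoter: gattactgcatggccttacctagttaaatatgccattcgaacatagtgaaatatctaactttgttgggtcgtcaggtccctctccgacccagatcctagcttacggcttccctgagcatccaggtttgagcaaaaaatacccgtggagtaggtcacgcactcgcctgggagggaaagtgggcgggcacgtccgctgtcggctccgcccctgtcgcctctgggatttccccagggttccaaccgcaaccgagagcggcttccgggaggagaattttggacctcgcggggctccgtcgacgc

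E2F factors drive many genes of S phase, NF-Y binds the CCAAT box, and the cell cycle homology region marks many genes of G2 and mitosis. Both strands were searched for the E2F core as TTTCCCGC, TTTCGCGC, TTTGCCGC or TTTGGCGC, for CCAAT, and for the homology region as TTTGAA. The E2F core was found in 1 of the 7 promoters, that of Brca2, where it lies on the opposite strand and begins 168 bases upstream of the start. It occurs in 2.26% of all 32851 promoter windows. CCAAT was found in 3 of the 7 (Brca1, Rad54l and Blm), beside 37.4% of all windows, and in Rad54l it begins 50 bases upstream of the start. TTTGAA was found in 0 of the 7, beside 17.9% of all windows. None of these matches overlapped another. The Atr window held none of the 3 motifs as searched, and neither did those of Fanci and Chek1, whose RNA differed widely between the libraries, as described next. Near matches were not counted, such as TTTGGCGG close to the end of the Chek1 window. Exact letters in a window of 300 bases are a description and say nothing about binding.

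The 9 genes were set side by side as CPM on effective library sizes. A gene was called higher or lower in a comparison when it reached 5 CPM in the higher library, differed by at least 2-fold and had a 95% counting interval (Clopper-Pearson, exact) that excluded a ratio of 1. This is a rule of size, not a test. All 9 genes reached 5 CPM in effector memory and in central memory, and 5 of them did so in naive (Brca1, Brca2, Blm, Fanci and Atr). Rad54l, Exo1, Fancd2 and Chek1 therefore entered the comparisons with naive only through the memory libraries, and could be called in 1 direction only.

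**Figure D1:**
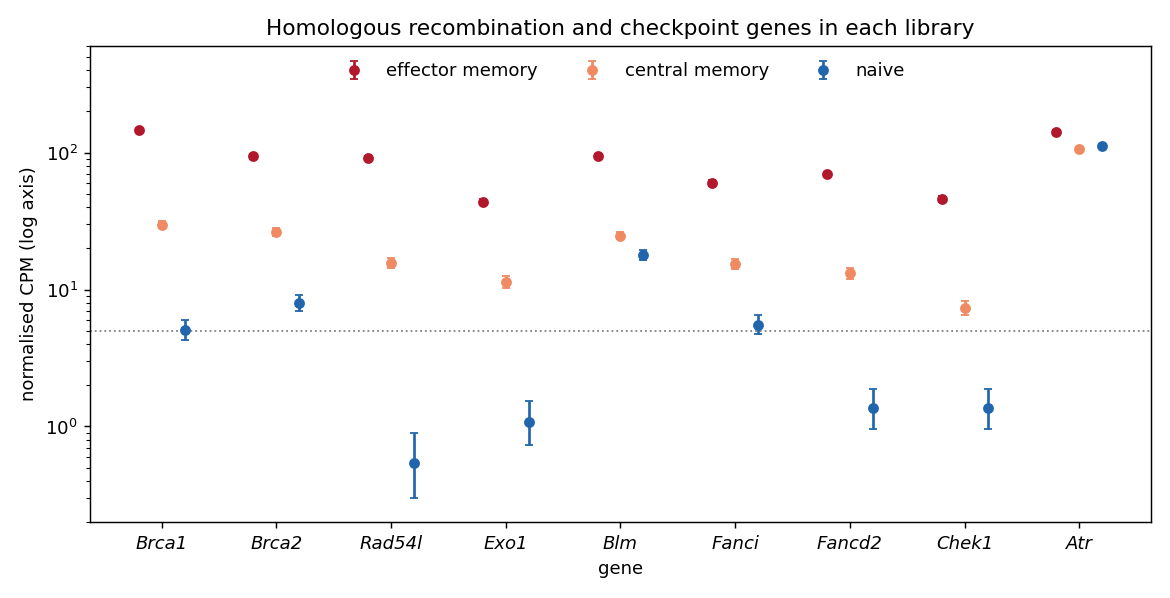
Normalised CPM (log axis) of the 9 genes in the effector memory, central memory and naive library, 1 library each, with exact Poisson 95% counting intervals; the dotted line is 5 CPM. Brca1 stands at 147, 29.8 and 5.07 CPM, while Atr stays between 106 and 142 CPM.

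Effector memory was set against naive first. Of the 9 genes, 8 were called higher in effector memory, 0 lower, and Atr passed in neither direction. By the same rule 22.3% of the 10087 genes at 5 CPM or more in either library were called higher and 15.6% lower. The median log2 ratio of the 9 genes was 4.86, beside 0.06 over all genes measured, and the single values ran between 0.35 for Atr and 7.41 for Rad54l.

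Among the genes of strand exchange, Brca1 (chromosome 11, 101488764 to 101551955, GRCm38) had 147 CPM in effector memory (4708 counts), 29.8 in central memory (1066 counts) and 5.07 in naive (141 counts). Its 3 levels did not overlap within counting error, and it was 29.1-fold higher in effector memory than in naive (interval 24.6 to 34.6). Brca2 (chromosome 5, 150522630 to 150570329), whose product acts on single-stranded DNA to start strand exchange, had 93.6, 26.3 and 7.94 CPM in effector memory, central memory and naive (2992, 943 and 221 counts). The effector memory library was again the highest, by 11.8-fold over naive (interval 10.3 to 13.6), a smaller ratio than that of Brca1 with an interval apart from it. Rad54l (chromosome 4, 116094264 to 116123690), the motor that helps strands invade the intact duplex, had 91.7, 15.5 and 0.539 CPM (2932, 556 and 15 counts). Naive held few reads of it, and it was 170.1-fold higher in effector memory (interval 103 to 304). Of its annotated exonic bases, 15.4% also belong to Lrrc41 on the opposite strand, a gene with 1579, 1900 and 682 counts in the same libraries.

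The genes of end resection and of unwinding lay far apart from each other in their ratios against naive. Between the memory libraries their ratios were close, 3.81 for Exo1 and 3.78 for Blm. Exo1 (chromosome 1, 175880581 to 175913489), which trims broken ends to single strands, had 43.4, 11.4 and 1.08 CPM in effector memory, central memory and naive (1388, 408 and 30 counts). That was 40.3-fold higher in effector memory than in naive (interval 28.1 to 59.9). Blm (chromosome 7, 80454733 to 80535119), a RecQ helicase that both resects ends and dissolves joined strands, had 93.8, 24.8 and 17.9 CPM (2999, 888 and 499 counts). Its level in central memory was 1.38-fold that in naive, and its ratio of 5.23 (interval 4.75 to 5.76) was the smallest of the 8 genes called higher in effector memory.

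The Fanconi pair also differed. Fancd2 (chromosome 6, 113531682 to 113597017) had 69.5, 13.1 and 1.37 CPM in effector memory, central memory and naive (2224, 469 and 38 counts) and was 50.9-fold higher in effector memory than in naive (interval 37.0 to 72.2). Fanci (chromosome 7, 79391929 to 79450264), its partner in the clamp that closes on damaged DNA, had 60.1, 15.3 and 5.53 CPM (1921, 548 and 154 counts) and was 10.9-fold higher (interval 9.21 to 12.9). Fanci shares 16.0% of its exonic bases with Polg on the opposite strand, which had 1861, 3363 and 3046 counts. Whether reads were assigned by strand is not given, and the part of overlapping genes in these values was not tested.

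The checkpoint kinases differed from each other across the libraries. Chek1 (chromosome 9, 36708482 to 36727065) had 45.7, 7.34 and 1.37 CPM in effector memory, central memory and naive (1463, 263 and 38 counts) and was 33.5-fold higher in effector memory than in naive (interval 24.3 to 47.5). Atr (chromosome 9, 95857597 to 95951781) had 142, 106 and 111 CPM (4553, 3780 and 3101 counts) and a ratio of 1.28 (interval 1.22 to 1.34). Its interval excludes 1, but the difference is below the 2-fold rule, and 3950 of the 10087 measured genes had a larger log2 ratio.

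**Figure D2:**
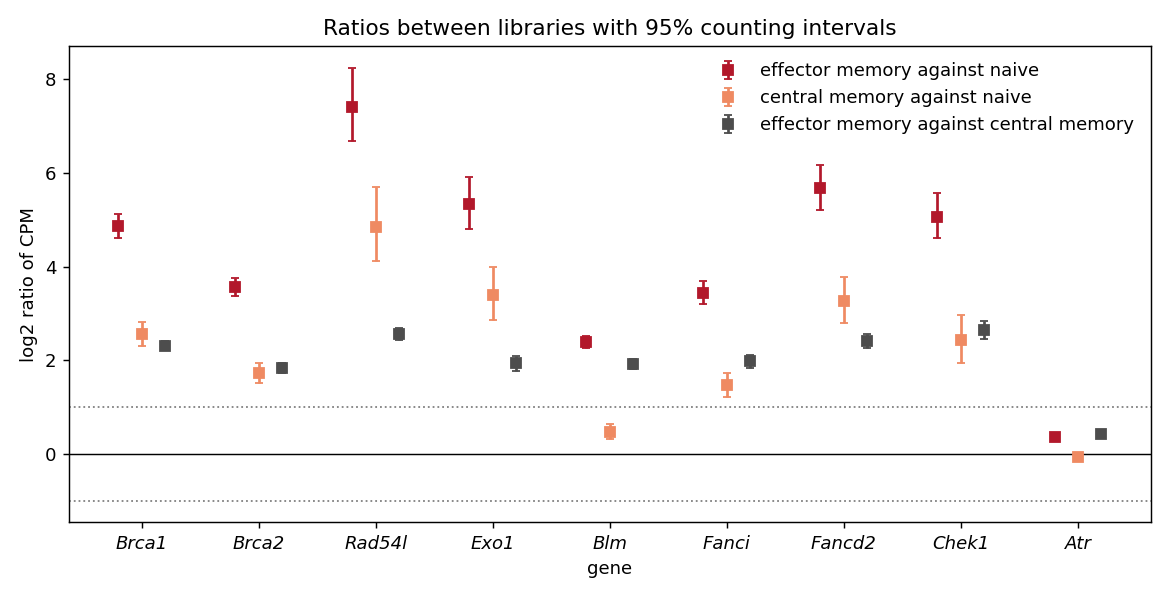
Log2 ratio of CPM for each of the 9 genes in 3 comparisons, with 95% exact counting intervals; dotted lines mark a 2-fold difference. Rad54l has the highest value, 7.41 for effector memory against naive, and Atr stays between -0.08 and 0.43.

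Central memory was then set against the same naive library, so these ratios share their denominator with those above. Of the 9 genes, 7 were called higher in central memory and 0 lower, beside 11.2% of 9737 measured genes called higher and 5.12% called lower. The median log2 ratio of the 9 was 2.43, and 0.14 over all measured genes. Rad54l was 28.8-fold higher (interval 17.3 to 51.8), Exo1 10.6-fold (7.29 to 15.9) and Fancd2 9.59-fold (6.88 to 13.7). Brca1 was 5.87-fold higher (4.92 to 7.05), Chek1 5.38-fold (3.82 to 7.77), Brca2 3.31-fold (2.86 to 3.85) and Fanci 2.76-fold (2.31 to 3.33). Blm had a ratio of 1.38 (1.24 to 1.55) and Atr one of 0.947 (0.903 to 0.993), and neither passed.

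On the log2 scale, central memory lay between naive and effector memory for 8 of the 9 genes. Its place on the way from naive to effector memory was 65.4% for Rad54l, 63.8% for Exo1, 57.5% for Fancd2, 52.5% for Brca1, 48.6% for Brca2, 47.9% for Chek1 and 42.6% for Fanci. Blm lay at 19.6%, close to naive. Atr was at -22.3%, since its central memory level was slightly below that of naive, on a difference between naive and effector memory that did not pass.

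Between the memory libraries, 8 of the 9 genes were called higher in effector memory than in central memory and 0 lower, beside 14.8% of 9975 measured genes called higher and 12.8% called lower. The median log2 ratio was 1.97, against -0.06 over all measured genes, and the 8 genes lay in a narrow range. Chek1 had the largest ratio, 6.23 (interval 5.46 to 7.13), followed by Rad54l with 5.91 (5.39 to 6.48). Brca2 had the smallest of the 8, 3.55 (3.30 to 3.83), and Blm, which had a ratio of 1.38 between central memory and naive, was 3.78-fold higher (3.51 to 4.08). Atr had a ratio of 1.35 (1.29 to 1.41) and did not pass.

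Summed over the 9 genes, CPM came to 787 in effector memory, 249 in central memory and 152 in naive. Atr made up 18.1%, 42.4% and 73.2% of these sums, and Brca1 18.7%, 11.9% and 3.33%.

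The balance between partner genes was compared within each library as counts per exonic base, for pairs chosen as known partners. The level of each ratio depends on the exon lengths taken, which the intervals do not cover, while its order between libraries does not. Per kilobase of the transcript with the longest coding sequence, for example, Exo1 had 5.57 and Blm 19.7 CPM in effector memory. Brca1 stood to Brca2 as 2.52 to 1 in effector memory (interval 2.40 to 2.63), 1.81 in central memory (1.65 to 1.98) and 1.02 in naive (0.820 to 1.27). Fancd2 stood to Fanci as 0.842 in effector memory (0.792 to 0.896), 0.623 in central memory (0.549 to 0.706) and 0.180 in naive (0.122 to 0.257). Both ratios differed between the 3 libraries beyond counting error. Exo1 to Blm was 0.482 in effector memory (0.452 to 0.514) and 0.479 in central memory (0.425 to 0.539), which overlap, against 0.0627 in naive (0.0418 to 0.0906).

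Chek1 stood to Atr as 1.64 in effector memory (1.54 to 1.74), 0.355 in central memory (0.312 to 0.402) and 0.0625 in naive (0.0441 to 0.0859). The level of these values depends on the exon length taken for Atr, but their order between libraries does not. Per kilobase of the transcript with the longest coding sequence, Chek1 had 12.0 and Atr 17.6 CPM in effector memory, so that Atr was the higher. Between effector memory and naive, Chek1 differed 33.5-fold and Atr 1.28-fold. Brca1 to Bard1, whose products form a ubiquitin ligase together, was 1.33 in effector memory (1.26 to 1.39) and 1.25 in central memory (1.13 to 1.39), against 0.567 in naive (0.449 to 0.714).

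**Figure D3:**
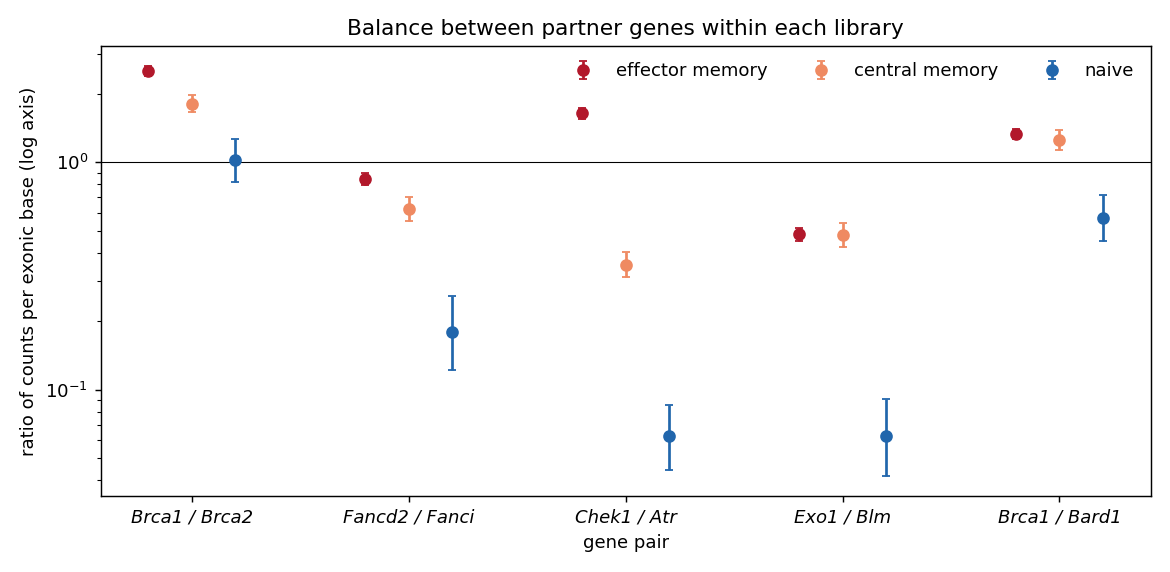
Ratio of counts per exonic base (log axis) between partner genes in the effector memory, central memory and naive library, 1 library each, with exact 95% counting intervals. Chek1 to Atr spans 1.64, 0.355 and 0.0625, while Brca1 to Bard1 spans 1.33, 1.25 and 0.567.

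As levels per kilobase of annotated exons, the order of the genes differed between libraries. In effector memory Brca1 was highest at 17.3 CPM per kilobase, then Rad54l at 11.9, Blm at 10.7, Fanci at 10.4, Chek1 at 9.87, Fancd2 at 8.76, Brca2 at 6.86, Atr at 6.03 and Exo1 at 5.15. Blm and Fanci, and Fanci and Chek1, did not differ beyond counting error. In central memory Atr led at 4.47 and Brca1 followed at 3.49. Blm (2.82) and Fanci (2.65) overlapped, as did Rad54l (2.01) and Brca2 (1.93), while Fancd2 (1.65), Chek1 (1.58) and Exo1 (1.35) closed the order with overlapping neighbours. In naive Atr led at 4.72, Blm followed at 2.04 and Fanci at 0.959. Brca1 (0.594) and Brca2 (0.582) overlapped, and Chek1 (0.295), Fancd2 (0.172), Exo1 (0.128) and Rad54l (0.0700) closed the order, each overlapping the next.

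The annotation gives Atr 23629 exonic bases over all its transcripts, but the transcript with its longest coding sequence has 8102. Per kilobase of such transcripts, a length chosen after the values were seen, Rad54l came first in effector memory at 30.3 CPM per kilobase and Brca1 second at 22.4, and Atr moved up to the fourth place at 17.6. Atr remained first in central memory at 13.0 and in naive at 13.8.

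The rest of the homologous recombination pathway was divided by the 2-fold rule in the same comparisons. Over all measured genes, effector memory against naive had 22.3% called higher and 15.6% lower. Central memory against naive had 11.2% and 5.12%, and effector memory against central memory 14.8% and 12.8%. List medians here and below run over all genes of a list, also those under 5 CPM, which could not be called. Of 29 other genes of the pathway, 18 were called higher in effector memory than in naive, 0 lower and 11 in neither direction (median log2 ratio 1.78). Central memory had 7 of the 29 called higher against naive and 0 lower (median 0.42), a count of 1 where a level of 20 CPM was required in place of 5. Effector memory had 17 called higher against central memory and 0 lower (median 1.25). Rad51ap1, which encodes an accessory protein of strand exchange, was 89.3-fold higher in effector memory than in naive (interval 57.7 to 147), and Rad54b, a relative of Rad54l, 76.3-fold (47.5 to 131). Rad51b was 51.8-fold higher (23.6 to 142) on 6 naive counts. Genes in neither direction included the break sensors Mre11a, with log2 ratio 0.67, and Rad50, with 0.90. Both were called higher in effector memory than in naive where a ratio of 1.5 was required. Of the 29 genes, 27 had a log2 ratio above 0 in effector memory against naive.

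Of 15 other Fanconi anaemia genes, 7 were called higher in effector memory than in naive and 0 lower (median log2 ratio 0.87). In central memory against naive 2 were higher (median 0.37), or 0 at a minimum of 20 CPM, and in effector memory against central memory 5 (median 0.74), with 0 lower in both. The 2 stand among 13 genes of the list at 5 CPM or more in central memory or naive, beside 11.2% of all measured genes. In effector memory, 22.3% of measured genes were called higher than in naive and 14.8% higher than in central memory. Ube2t, whose product joins ubiquitin to FANCD2 and FANCI, was 8.36-fold higher in effector memory than in naive (interval 6.75 to 10.5). Fanca, a core complex subunit, was 6.56-fold higher (5.51 to 7.86), Fancb, another subunit, 3.50-fold (2.82 to 4.38), and the translocase gene Fancm 3.11-fold (2.81 to 3.43). Fanca and Ube2t were the members of this list called in central memory against naive, at 3.37-fold (2.80 to 4.06) and 2.51-fold (1.98 to 3.20).

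Among 23 other checkpoint genes, 10 were called higher in effector memory than in naive and 1 lower (median log2 ratio 0.37). Over the 22 of them at 5 CPM or more in either library, the median was 0.61. Of all measured genes, 22.3% were called higher and 15.6% lower in this comparison. Clspn, which encodes the adaptor Claspin that hands CHK1 to ATR, had 173 CPM in effector memory, 45.6 in central memory and 1.44 in naive, 120.4-fold higher in effector memory than in naive (interval 88.3 to 169). Wee1, a kinase that restrains mitotic entry, was 16.8-fold higher (13.1 to 21.7). Cdc25c, a phosphatase that opposes it, had 38.5, 3.38 and 0.0719 CPM with 2 naive counts, a ratio of 535.5 (148 to 4427). Cdkn1a, which encodes the CDK inhibitor p21, had 156, 3.99 and 0.0719 CPM, also on 2 naive counts, and a ratio of 2172 (601 to 17937).

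Atm, the kinase that answers double-strand breaks and a relative of Atr, was the checkpoint gene called lower. It had 114 CPM in effector memory, 228 in central memory and 290 in naive, 2.55-fold lower in effector memory than in naive (interval 2.45 to 2.65) and 2.01-fold lower than in central memory (1.93 to 2.09). The second of these calls was lost with the scaling of DESeq2 and with upper quartile scaling, at log2 ratios of -0.93 and -0.98. Rad9a, Hus1 and Rad1, the clamp that helps switch ATR on, had log2 ratios of 0.00, 0.25 and 0.11 between effector memory and naive and passed in neither direction. Against naive, central memory had 4 checkpoint genes higher and 0 lower (median 0.12), and effector memory had 7 higher and 1 lower against central memory (median 0.57). Of all measured genes, 11.2% were higher and 5.12% lower in central memory than in naive. In effector memory, 14.8% were higher and 12.8% lower than in central memory.

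Non-homologous end joining, the route that seals breaks without a template, had 0 of 10 genes called higher in the 3 comparisons. In effector memory 2 of the 10 were called lower than in naive (median log2 ratio -0.13) and the same 2 lower than in central memory (median 0.02), while 0 were called in central memory against naive (median -0.09). These counts stand beside 15.6% and 12.8% of all measured genes called lower in effector memory. Over the 9 genes at 5 CPM or more in a pair, the medians were -0.26, -0.01 and 0.05 in that order. Lig4, the ligase of this route, had 2.78 CPM in effector memory, 7.68 in central memory and 13.3 in naive, 4.78-fold lower in effector memory than in naive (interval 3.78 to 6.09). Prkdc, which encodes the DNA-dependent protein kinase, had 79.1, 192 and 177 CPM, 2.23-fold lower in effector memory than in naive (2.13 to 2.35) and 2.43-fold lower than in central memory (2.32 to 2.55). With total count or upper quartile scaling Xrcc4 was also called lower in effector memory than in naive, at a log2 ratio of -1.01.

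**Figure D4:**
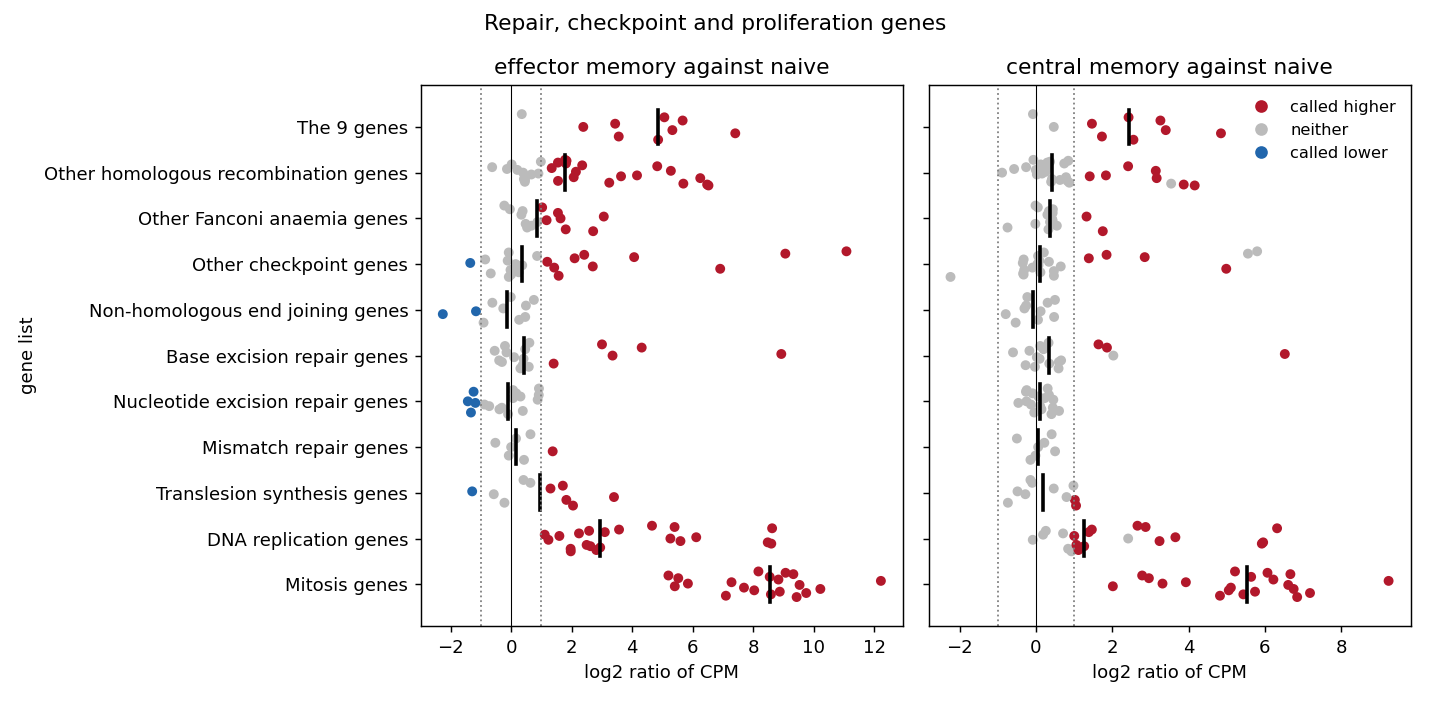
Log2 ratio of CPM for each gene (point) of the 9 genes and of 10 related lists, for effector memory against naive (left) and central memory against naive (right), which share the naive library; black bars are list medians and dotted lines a 2-fold difference. The 9 genes have medians of 4.86 and 2.43, the mitosis genes 8.57 and 5.54, and the end joining genes -0.13 and -0.09.

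Most of the 9 genes lay between the medians of the 2 proliferation lists, whose ranges overlapped. In effector memory against naive, the replication genes reached up to log2 8.63, while the mitosis genes began at 5.20. All 21 DNA replication genes were called higher in effector memory than in naive, with a median log2 ratio of 2.95, and 14 of 21 in central memory against naive, with a median of 1.26, or 9 at a minimum of 20 CPM. Their largest ratios between effector memory and naive were those of Rrm2, Mcm10, Cdc6 and Gins2, at log2 8.63, 8.60, 8.48 and 6.12, and Pcna stood at 633, 219 and 134 CPM in effector memory, central memory and naive. Of the 9 repair genes, 7 had a larger log2 ratio than the median replication gene in effector memory against naive, by up to 4.46 for Rad54l, while the differences of Blm and Atr from it were -0.56 and -2.59. The same count, 7, lay above it in central memory against naive. None of the 9 reached the median of the 20 mitosis genes, a value of 8.57 in effector memory against naive, 5.54 in central memory against naive and 2.92 between the memory libraries. Against central memory, effector memory had 8 of the 9 above the replication median of 1.79, but Chek1, the farthest above, exceeded it by 0.85. All 20 mitosis genes were called higher in each comparison. In naive, however, 2 of the 20 mitosis genes and 13 of the 21 replication genes reached 5 CPM. The others could enter the comparisons with naive only through a memory library, and could be called in 1 direction only. The mitosis genes with the largest ratios between effector memory and naive were Cenpf, Bub1, Ccna2 and Aurkb, at log2 12.22, 10.22, 9.75 and 9.54, each on 9 or fewer naive counts.

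Base excision repair, whose last steps share enzymes with replication, had 5 of 17 genes called higher in effector memory than in naive and 0 lower (median log2 ratio 0.41). They included Neil3, a DNA glycosylase gene, 488-fold higher (interval 209 to 1505) on 5 naive counts, the replicative ligase gene Lig1, 19.9-fold higher (18.3 to 21.8), the glycosylase gene Neil2, 10.2-fold higher (6.73 to 16.2), and the flap nuclease gene Fen1, 8.03-fold higher (7.35 to 8.78). In central memory 3 of 17 were called higher than in naive and 0 lower (median 0.33). Against central memory, effector memory had 5 higher and 1 lower (median 0.32). Of the 17 genes, 16, 15 and 16 were at 5 CPM or more in these 3 comparisons. Over all measured genes, 22.3% were higher and 15.6% lower in effector memory than in naive. The shares were 11.2% and 5.12% for central memory against naive, and 14.8% and 12.8% between the memory libraries.

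The genes most like the set in pattern were found by the distance of their log2 ratios against naive, for effector memory and central memory, to the medians of the 9 genes (4.86 and 2.43), over the 3 libraries. Among 9851 genes with a usual name and 5 CPM in a library, the 4 nearest were Eme1, Ect2, Ikbip and Mrgpre, at distances of 0.03, 0.11, 0.22 and 0.25 log2 units. Eme1, a subunit of a nuclease that cuts joined DNA strands, stood at 45.0 CPM in effector memory, 8.43 in central memory and 1.58 in naive. In all, 104 genes lay within 1 log2 unit.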

How the data were processed

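Each cell population was sequenced as 1 RNA library. The authors deposited a table of whole-number read counts, gene symbols in rows and populations in columns; the headers TEM, TCM and TN were read as abbreviations of the 3 sample titles. CASAVA, the aligner HISAT2 2.0.5, the counter featureCounts 1.5.0-p3 and build mm10 are named, without roles, in the submitters' processing notes. The annotation, strand setting and handling of reads with several matches are not given. From the counts, CPM was computed on effective library sizes with trimmed mean of M values factors from edgeR 4.0.16 in R 4.3.3 (0.967 for effector memory, 0.999 for central memory and 1.04 for naive). Ratios of CPM carry Clopper-Pearson intervals at the 95% level. The calling rule ran over the whole table, and a count of 0 in a pair entered as 3 counts. The rule was also run on simulated counts with counting error only, which say nothing about variation between animals or preparations. Exon lengths and coordinates came from GENCODE M21 (GRCm38), which held 98.7% of the gene names.

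The 9 genes and the lists were chosen with earlier results of these data known. Besides the 9, the rule named up to 4 called genes per list with the largest absolute log2 ratio between effector memory and naive, each recombination, Fanconi or checkpoint gene called lower, the 5 genes nearest in pattern, and Mki67, Pcna, Cd8a and Cd3e; a few genes that it names are not reported here. Mre11a, Rad50, Rad9a, Hus1, Rad1, Xrcc4, Usp1, Rev3l, Atrip and Trex1 were added with their values in view, and Bard1 as a known partner. Gins3, Mcm2, Mcm3, Mcm7, Mpg and Rmi2 were also added with their values in view. Overlapping and marker genes serve as context. Alternatives were total counts, upper quartile factors, size factors of DESeq2 1.42.0, other minimum levels and ratios, and log2(CPM + 1). Python 3.11.15 with NumPy 2.4.6, pandas 2.3.3, SciPy 1.17.1 and matplotlib 3.10.9 did the rest.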

Additional observations from a re-analysis of the deposited data

How the results depend on the processing

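Under total counts, DESeq2 size factors and upper quartile factors, the 9 genes gave the same counts of calls and each kept its direction and call in all 3 comparisons. The median over measured genes shifted by up to -0.12 on the log2 scale under these scalings (central memory against naive, upper quartile). A minimum of 20 CPM left Brca1 and Brca2, 2 genes, called in central memory against naive, and there took the related lists to 1 gene (other recombination), 0 (other Fanconi) and 9 (replication). It also left 1 end joining gene lower in effector memory than in naive and 1 than in central memory. A ratio of at least 4 left 4 called between the memory libraries (Brca1, Rad54l, Fancd2 and Chek1), and ended the calls of Brca2 and Fanci in central memory against naive. With log2(CPM + 1) the median of the 9 was 4.30 in effector memory against naive and 1.82 in central memory against naive. Genes called in all moved with the rule. With comparisons in the order effector memory to naive, central memory to naive and effector to central memory, they numbered 6162, 3560 and 4810 with no minimum, 5874, 3194 and 4924 at a ratio of 1.5, and 1657, 702 and 924 at a ratio of 4. Central memory against naive had 2501 at a minimum of 1 CPM and 830 at 20 CPM. Polh, Polk and the replication gene Gins3 lost their calls in central memory against naive under each of the 3 other scalings. There Mcm7 lost its call under DESeq2 and upper quartile factors, and Mcm3 under upper quartile factors. Usp1 lost its call in effector memory against naive under each of the 3. Between the memory libraries, Rmi2 and Mcm2 lost theirs with total counts. Mpg, the base excision gene called lower there, lost its call with DESeq2 factors and at a minimum of 20 CPM. Other listed genes gained calls under these scalings. No library could be left out, since each group has 1. No paired analysis was possible because each group has 1 library. In naive, 15 counts of Rad54l, 30 of Exo1 and 38 each of Fancd2 and Chek1 limit the precision of their ratios.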

Other observations

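Other repair routes were counted by the same rule, by which 22.3% of all measured genes were higher and 15.6% lower in effector memory than in naive. Of 17 nucleotide excision repair genes, 0 were called higher in effector memory than in naive and 4 lower, with a median log2 ratio of -0.10. Those lower were Ercc8, 2.69-fold (interval 2.27 to 3.21), Xpc, a sensor of distorted DNA, 2.51-fold (2.31 to 2.73), Uvssa, 2.36-fold (2.18 to 2.55), and Ercc6, 2.27-fold (2.12 to 2.42), of which Ercc8, Uvssa and Ercc6 belong to the branch that repairs transcribed strands. None of the 17 was called in central memory against naive, and 2 were lower in effector memory than in central memory. Of 7 mismatch repair genes, Msh6 was called higher in effector memory than in naive, at 228 CPM against 88.0 CPM, and 0 were called in the other 2 comparisons. In a list of 10 translesion synthesis genes, 5 were higher and 1 lower in effector memory than in naive (median log2 ratio 0.97). Polq, the polymerase of an end joining route that uses short matching sequences, was 10.6-fold higher (9.33 to 12.0), Polh 4.13-fold (3.78 to 4.53), Polk 3.55-fold (3.20 to 3.94) and Rad18 3.27-fold (2.93 to 3.67), while Rev3l was 2.44-fold lower (2.32 to 2.56).

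Atrip, whose product binds ATR and brings it to single-stranded DNA, had 12 counts in effector memory, 3 in central memory and 11 in naive, beside 4553, 3780 and 3101 for Atr. In the annotation it shares 16.0% of its exonic bases with Trex1 on the same strand, and Trex1 is listed at 0 in all 3 libraries. How reads on shared exons were counted is not given here, and its part in these values was not tested.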
